A study of Mus musculus with 6 samples.

Results

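The genes described here are 10 regulators of mitosis: the cyclin genes Ccna2, Ccnb1, Ccnb2 and Ccnf, the kinase genes Cdk1, Plk1, Aurka and Aurkb, Birc5, which encodes survivin, and Cdkn3, which encodes a phosphatase. They were chosen by symbol, with earlier results of these data known. All 10 were among the 49997 gene symbols of the count table. RNA came from sorted bone marrow small pre-B cells of C57BL/6 mice aged 6 to 12 weeks, either wild type (WT, 3 libraries) or of the ΔrsCBE genotype (labelled rsCBE, 3 libraries), with no treatment named for either. Going by the series title, the genotype concerns chromatin topology set by the DNA-binding protein CTCF and receptor editing. The labels name no deleted interval for ΔrsCBE, and do not say whether a library came from 1 mouse or from a pool. P-values therefore measure the spread between these libraries, which may be partly technical.

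Entry into mitosis is driven by the kinase CDK1 bound to A-type and then B-type cyclins. Polo-like kinase 1 and the Aurora kinases act beside it on centrosomes, spindle and chromosomes, and their transcripts build up in G2 and are cleared after division. Small pre-B cells follow the dividing large pre-B stage of B-cell development and are mostly quiescent, so these transcripts are usually low in them.

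Promoter sequences are shown first because the members form a group known for 2 kinds of promoter element, the CCAAT box and the cell cycle genes homology region. The first is bound by the factor NF-Y and the second, with the letters TTTGAA or TTCGAA, by the MuvB complexes. RefSeq promoters on GRCm38.p6, from 250 bases before to 50 after a start site, were found for 8 of the 10 members, all but Ccna2 and Aurkb. The 120 bases before the start site are printed 5′ to 3′ for 4 of these 8 members. They are Ccnb2 (chr9:70421555-70421674, minus strand), Cdk1 (chr10:69352913-69353032, minus strand), Aurka (chr2:172370571-172370690, minus strand) and Cdkn3 (chr14:46760421-46760540, plus strand). Capitals mark CCAAT or its reverse complement ATTGG, and TTTGAA or its reverse complement TTCAAA.
Ccnb2: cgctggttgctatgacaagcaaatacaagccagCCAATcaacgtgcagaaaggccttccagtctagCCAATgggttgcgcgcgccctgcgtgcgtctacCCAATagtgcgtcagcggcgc
Cdk1: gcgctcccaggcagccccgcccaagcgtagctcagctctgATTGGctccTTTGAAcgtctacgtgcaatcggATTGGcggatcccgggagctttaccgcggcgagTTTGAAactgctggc
Aurka: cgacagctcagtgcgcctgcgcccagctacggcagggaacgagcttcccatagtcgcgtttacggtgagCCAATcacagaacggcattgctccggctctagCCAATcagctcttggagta
Cdkn3: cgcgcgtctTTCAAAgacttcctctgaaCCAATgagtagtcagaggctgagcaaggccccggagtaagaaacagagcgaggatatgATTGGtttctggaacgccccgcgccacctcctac

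In the Ccnb2 window the CCAAT boxes begin 87, 54 and 21 bases before the start site, each 33 bases from the next. The Cdk1 boxes at 80 and 48 bases, and the Aurka boxes at 51 and 19 bases, are 32 bases apart and in the same orientation, as are those of Ccnb1 at 99 and 67 bases (not printed). Across the full 300-base promoters, searched on both strands, CCAAT occurred in 7 of the 8 members, all but Birc5, and in 37.4% of all 32851 promoters and 37.9% of the 7723 promoters of tested genes. CCAAT boxes of the same orientation 32 or 33 bases apart occurred in 4 of the 8 (Ccnb1, Ccnb2, Cdk1 and Aurka), in 0.487% of all promoters and in 0.984% of those of tested genes. This spacing was chosen after the member sequences had been seen. TTTGAA on either strand occurred in 6 of the 8, all but Ccnb1 and Birc5, and in 17.9% of all promoters and 12.5% of those of tested genes. TTCGAA was found in 0 of the 8 and in 1.56% of all promoters. No match overlapped another in the members. GENCODE M21 places the start of Ccnb1, Ccnf and Cdk1 upstream of the RefSeq start site used here.

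Total counts were 428106 to 1300805 per library, so a count of 3, taken as the lowest detectable amount, corresponded to 2.38 to 7.36 CPM (counts scaled to a common library size). Library sex could be read from Xist and 4 Y-linked genes: all WT libraries and ΔrsCBE replicate 1 had the male pattern, and ΔrsCBE replicates 2 and 3 the female. Sex is thus partly confounded with genotype, and results within the 4 male-pattern libraries are given where they differ. All 11 B-lineage markers examined, among them Rag1, Pax5 and Il2ra, were expressed. Their summed level was 12166 to 14364 CPM in WT and 13162 to 13720 CPM in ΔrsCBE. Of the 11, 0 were called different by edgeR or by DESeq2, and 4 had an unadjusted edgeR p-value under 0.05. Over all 7792 tested genes, 798 had such a p-value. Markers of pro-B and large pre-B cells, the dividing stages before the sorted one, summed to 571 to 684 CPM in WT and 540 to 688 CPM in ΔrsCBE, nearly all from Il7r and Spn. The more stage-restricted Igll1, Vpreb1, Dntt and Kit had only 10, 7, 7 and 6 counts over all 6 libraries. Erythroid markers were listed at 0 for 7 of 8 genes and T and NK cell markers for 5 of 7. The myeloid markers summed to 53.1 to 85.8 CPM in WT and 61.7 to 69.5 CPM in ΔrsCBE, mostly Itgam. Of the neutrophil and monocyte markers in that list, Lyz2 had 0 counts in each WT library and 2, 4 and 2 in the ΔrsCBE replicates, and S100a9 had 0 in each and 2, 1 and 3. Ngp, Camp and Mpo had at most 3 counts in any ΔrsCBE library and 0 in WT, while S100a8 and Elane were at 0 in all 6. Others were present in WT: Csf1r had 4, 0 and 2 counts there and 1, 1 and 2 in ΔrsCBE. Ltf had 0, 1 and 0 in WT and 2, 0 and 0 in ΔrsCBE. These counts are at or near the lowest detectable amount, and their part in the results was not tested. Plasma cell markers, 1133 to 1258 CPM in WT and 1134 to 1430 CPM in ΔrsCBE, were mostly Irf4, and mature B cell markers summed to 523 to 655 and 484 to 558 CPM.

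The comparison of the genotypes asks which transcripts differ in ΔrsCBE small pre-B cells. The members were lower in ΔrsCBE as a group. Their counts summed to 0.0557%, 0.0705% and 0.0619% of all counts in WT replicates 1 to 3 against 0.0239%, 0.0329% and 0.0217% in the ΔrsCBE replicates. The 95% Wilson interval of the lowest WT library, 0.0501% to 0.0619%, lay above that of the highest ΔrsCBE library, 0.0295% to 0.0367%, though intervals cover counting error only. The mean share was 0.0627% ± 0.00746 in WT and fell to 0.0262% ± 0.00593 in ΔrsCBE libraries (SD, n = 3), so that ΔrsCBE had 41.8% of the WT share (two-sided exact permutation p = 0.1, the smallest that 3 against 3 libraries can give). The mitochondrial share of counts, a sign of RNA quality, was also lower in ΔrsCBE, at 9.07%, 11.3% and 10.8% in WT and 8.87%, 8.90% and 8.83% in ΔrsCBE. Over counts without mitochondrial genes the member share still differed, by -0.0413 percentage points against -0.0365 over all counts. In bulk RNA, fewer dividing cells in a sample and less of these RNAs per cell cannot be told apart.

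Of the 10 members, 9 passed the count filter and 7 were called lower in ΔrsCBE by edgeR's quasi-likelihood test at an adjusted p under 0.05 over all genes: Ccna2, Ccnf, Plk1, Aurka, Aurkb, Birc5 and Cdkn3. Over all 7792 tested genes, 1.49% were called lower and 1.69% in either direction. Ccnb2 and Cdk1 were not past the threshold, Ccnb1 was not tested, and 0 members were called higher. For 8 of the 10 members, and 7 of the 9 tested, the CPM values of the genotypes did not overlap, with ΔrsCBE lower. Over all tested genes this held for 8.92% (16.1% in either direction). The filter asks for about 12.1 CPM in 3 libraries. Aurka and Cdkn3 met it only through the WT libraries, so a low level in ΔrsCBE was built into their being tested; the other 7 tested members met it in ΔrsCBE alone, and 5 of those were called. The median log2 fold change of the 9 tested members was -1.32, against 0.01 for all tested genes.

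**Figure D1:**
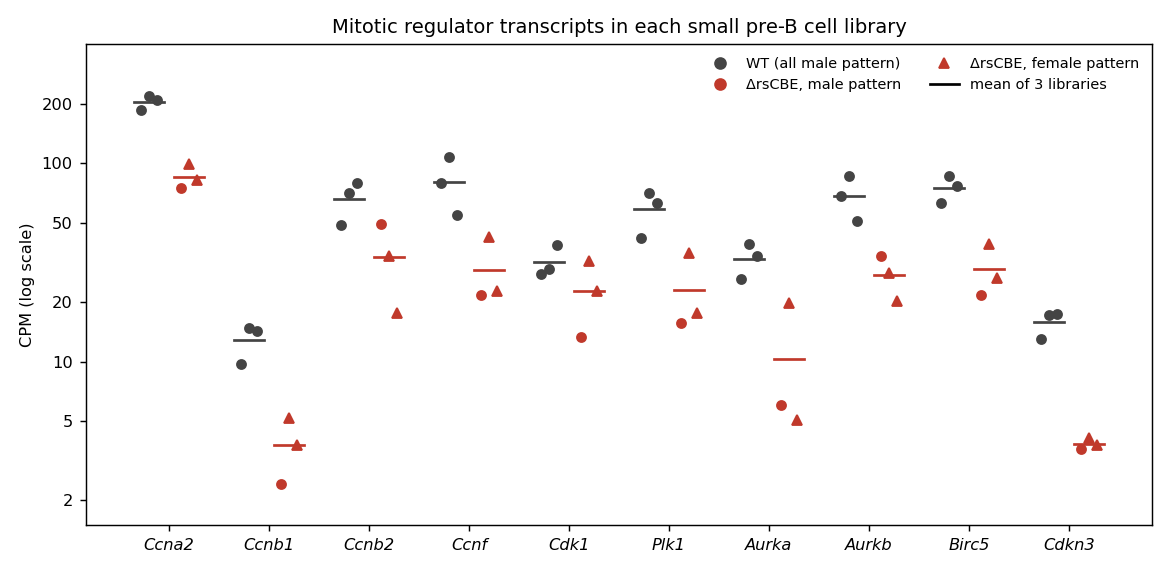
CPM of each member in each library on a log axis, WT in grey and ΔrsCBE in red, with circles for the male and triangles for the female sex pattern and a bar for the mean of 3 libraries. The genotypes separate for 8 members and overlap for Ccnb2 and Cdk1, and ΔrsCBE replicate 2, the left triangle, is the highest of its genotype for 8 members.

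The cyclins were taken first. Ccna2 (GENCODE M21 on GRCm38: chromosome 3, minus strand, 36564865 to 36572150) encodes cyclin A2, which partners CDK2 in S phase and CDK1 in G2. WT replicates 1 to 3 had 185, 218 and 207 CPM, the ΔrsCBE replicates 75.0, 99.2 and 82.1 CPM. Each ΔrsCBE library was far below each WT library. Ccna2 fell by 1.24 on the log2 scale (standard error, SE, 0.16; edgeR adjusted p = 4.17e-05), to 42.3% of the WT level. It was past the threshold in all 6 fits that left out a library, at -1.37 to -1.16. Exosc9 on the opposite strand overlaps 12.5% of the exonic length of Ccna2, and the counting's use of strand is not given in the sources used here. Exosc9 itself was not called (log2 fold change -0.18, SE 0.31; edgeR adjusted p = 0.909).

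The B-type cyclins bind CDK1 at mitotic entry and differ in where they act, cyclin B1 moving into the nucleus and cyclin B2 being linked with the Golgi. Ccnb2 (chromosome 9, minus strand, 70407692 to 70421547) had 48.7, 71.1 and 79.2 CPM in WT, against 49.6, 34.1 and 17.7 CPM in ΔrsCBE. ΔrsCBE replicate 1 lay just above WT replicate 1, so the genotypes overlapped. The log2 fold change, -0.99 (SE 0.28), missed the threshold (edgeR adjusted p = 0.0687). It was past the threshold without ΔrsCBE replicate 1 (-1.35, edgeR adjusted p = 0.00833) and without WT replicate 1 (-1.16, adjusted p = 0.0380), but in none of the other 4 such fits. With no count filter (edgeR adjusted p = 0.00819) or a filter of 1 CPM in 3 libraries (0.00992) it was also past it. Within the male-pattern libraries the log2 fold change was -0.45. Ccnb1 (chromosome 13, 100778650 to 100786570, minus strand) had only 6, 6 and 18 counts in WT and 2, 5 and 3 in ΔrsCBE, and did not pass the filter. Its levels were 9.73, 14.7 and 14.3 CPM in WT and 2.42, 5.17 and 3.79 CPM in ΔrsCBE, without overlap but near the lowest detectable amount in ΔrsCBE. The pooled WT to ΔrsCBE ratio was 3.39, with a counting interval of 1.61 to 7.78 (95%, exact). With no count filter, edgeR put its log2 fold change at -1.71 (SE 0.58; adjusted p = 0.196). A pseudogene, Ccnb1-ps, had 4, 2 and 7 counts in WT and 0, 2 and 1 in ΔrsCBE, and the division of reads between such copies is uncertain.

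Ccnf (chromosome 17, 24222198 to 24251484, minus strand) encodes cyclin F, which binds no CDK and is the substrate receptor of a ubiquitin ligase. Its WT levels were 79.5, 108 and 54.6 CPM, and its ΔrsCBE levels 21.8, 42.4 and 22.7 CPM. The highest ΔrsCBE library, replicate 2, was below the lowest WT library, replicate 3. Ccnf fell by 1.35 on the log2 scale (SE 0.28; edgeR adjusted p = 0.00748). The call was lost without WT replicate 2 (edgeR adjusted p = 0.0511) and without ΔrsCBE replicate 3 (0.0837). Rrm2, a ribonucleotide reductase subunit that cyclin F targets for destruction, fell as well, by 0.87 (SE 0.18; edgeR adjusted p = 0.00694).

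Cdk1 (chromosome 10, 69335146 to 69352938, minus strand), the catalytic partner of the A- and B-type cyclins, missed the threshold, as did Ccnb2 among the tested members. Its WT values of 27.6, 29.4 and 38.8 CPM compare with 13.3, 32.04 and 22.7 CPM in ΔrsCBE, where replicate 2 was inside the WT range. The means were 31.9 ± 6.02 and 22.7 ± 9.36 CPM (SD, n = 3). The log2 fold change was -0.52 (SE 0.32, 95% interval from -1.18 to 0.13; edgeR adjusted p = 0.622), which does not show that its level was the same in both genotypes. The estimate moved with single libraries, from -0.27 without ΔrsCBE replicate 1 to -0.88 without ΔrsCBE replicate 2, and was -1.31 within the male-pattern libraries (edgeR adjusted p = 0.200).

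**Figure D2:**
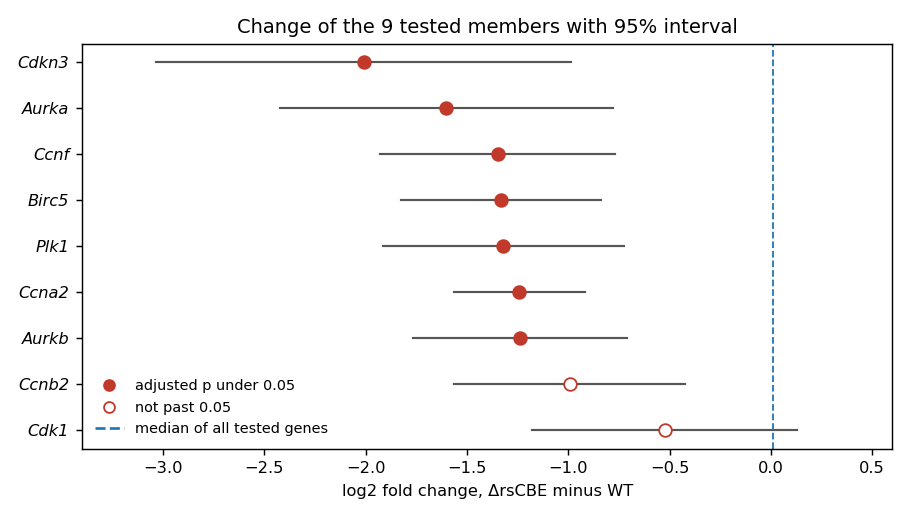
Log2 fold change (ΔrsCBE minus WT, horizontal axis) with its 95% interval for the 9 tested members, filled where the edgeR adjusted p-value was under 0.05; the dashed line is the median of all tested genes, 0.01. Estimates run from -2.01 for Cdkn3 to -0.52 for Cdk1, the one interval that reaches past 0.

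Polo-like kinase 1 activates CDK1-cyclin B and drives centrosome maturation and cytokinesis. Plk1 (chromosome 7, 122159439 to 122169873, plus strand) had WT levels of 42.2, 71.1 and 63.4 CPM and ΔrsCBE levels of 15.7, 35.1 and 17.7 CPM. The genotypes did not overlap, although ΔrsCBE replicate 2 was near WT replicate 1. Plk1 fell by 1.32 on the log2 scale (SE 0.29; edgeR adjusted p = 0.0106), and the call was lost in 3 of the 6 fits without 1 library, those without WT replicate 2, WT replicate 3 or ΔrsCBE replicate 3 (edgeR adjusted p = 0.0564, 0.166 and 0.103). The transcript model Gm44985 on the opposite strand overlaps 7.09% of its exonic length. Aurka (chromosome 2, 172356190 to 172370535, minus strand) encodes Aurora A, the centrosomal kinase that activates PLK1. It had 26.0, 39.2 and 34.1 CPM in WT. In ΔrsCBE it had 6.05, 19.6 and 5.05 CPM, from 5, 19 and 4 counts. Replicate 2 was thus over 3 times the others of its genotype, yet below all WT libraries. Aurka fell by 1.60 (SE 0.40; edgeR adjusted p = 0.0324). The estimate was -2.52 without ΔrsCBE replicate 2 (edgeR adjusted p = 0.000320). The call was lost without WT replicate 2, WT replicate 3, ΔrsCBE replicate 1 or ΔrsCBE replicate 3, with DESeq2 (adjusted p = 0.128) and with library sex as a covariate (log2 fold change -2.41, edgeR adjusted p = 0.0704).

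Aurora B and survivin are subunits of the chromosomal passenger complex, which corrects faulty attachments of chromosomes to the spindle and acts in cytokinesis. Aurkb (chromosome 11, 69045647 to 69051664, plus strand) stood at 68.1, 85.8 and 51.5 CPM in WT, against 33.9, 27.9 and 20.2 CPM in ΔrsCBE. Unlike most members it was highest, within ΔrsCBE, in replicate 1. Birc5 (chromosome 11, 117849251 to 117855743, plus strand) had 63.3, 85.8 and 76.8 CPM in WT and 21.8, 39.3 and 26.5 CPM in ΔrsCBE. Neither gene overlapped between genotypes. Aurkb fell by 1.24 (SE 0.26; edgeR adjusted p = 0.00668) and Birc5 by 1.33 (SE 0.24; edgeR adjusted p = 0.00184). Birc5, like Ccna2, was past the threshold without any 1 library, at -1.62 to -1.16, while Aurkb was not past it without ΔrsCBE replicate 3 (edgeR adjusted p = 0.0800) or within the male-pattern libraries (log2 fold change -0.92, edgeR adjusted p = 0.200) or with library sex as a covariate (-0.93, adjusted p = 0.282). Of the other subunits of the complex, Incenp, its scaffold, fell by 0.71 (edgeR adjusted p = 0.0164). Its call held in only 2 of the 6 fits that left out a library. For Cdca8, which encodes borealin, the estimate of -1.05 missed the threshold (edgeR adjusted p = 0.0606).

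Cdkn3 (chromosome 14, 46760541 to 46771669, plus strand) encodes a phosphatase that removes the activating phosphate from cyclin-dependent kinases, so that it opposes them while being made in the same cell cycle phase. It had 8, 7 and 22 counts in WT and 3, 4 and 3 in ΔrsCBE, or 13.0, 17.2 and 17.4 CPM against 3.63, 4.13 and 3.79 CPM. The ΔrsCBE libraries lay close together and at the lowest detectable amount. Cdkn3 had the lowest log2 fold change of the members, -2.01 (SE 0.50, 95% interval from -3.03 to -0.99; edgeR adjusted p = 0.0310). The pooled WT to ΔrsCBE ratio was 4.18, with a counting interval of 2.04 to 9.43 (95%, exact). The call was lost in each of the 6 fits that left out 1 library (adjusted p = 0.0870 to 0.411), with the replicate block (0.0549) and within the male-pattern libraries (0.290), while the estimate stayed between -2.12 and -1.88. DESeq2 gave no adjusted p-value for it.

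**Figure D3:**
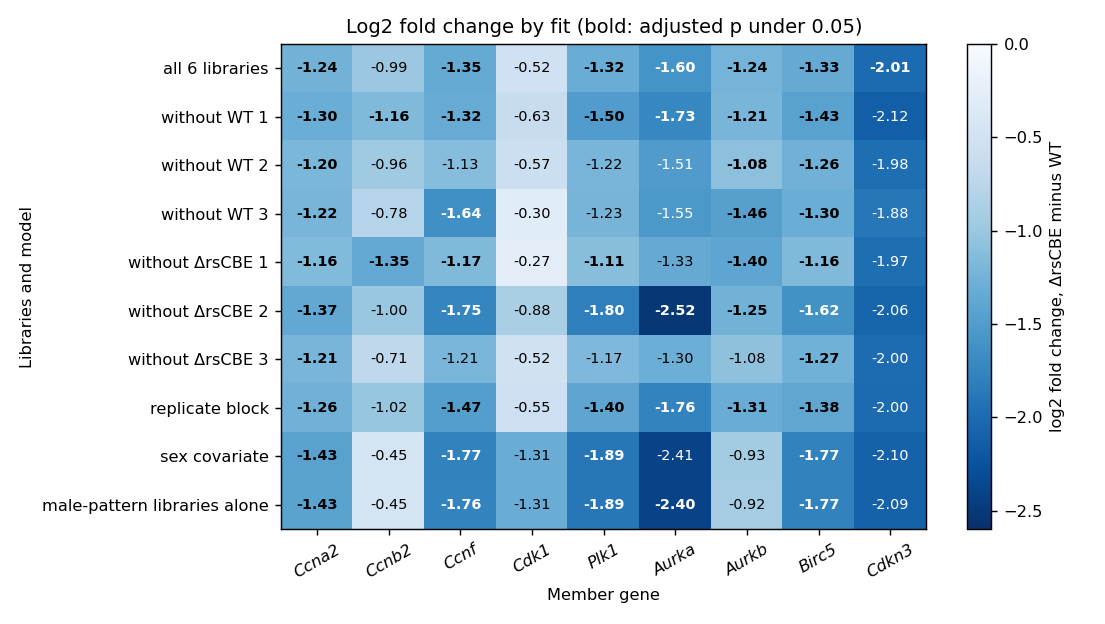
Log2 fold change (ΔrsCBE minus WT) of each tested member by the libraries and model used, darker for lower values, in bold where the edgeR adjusted p-value was under 0.05. Ccna2 and Birc5 are bold in each fit shown, Cdk1 in none, and Cdkn3 only in the top row, the fit on genotype alone with all 6 libraries.

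The libraries were ordered much alike by the members. WT replicate 2 was the highest library for 7 of the 10 and WT replicate 3 for the other 3, while ΔrsCBE replicate 1 was the lowest for 7 and ΔrsCBE replicate 3 for 3. Within ΔrsCBE, replicate 2 was the highest for 8 members. ΔrsCBE replicate 1, the library of the same sex pattern as WT, was below all WT libraries for 9 members, replicate 2 for 9 and replicate 3 for 10. The mean deviation of log2 CPM from each gene's mean over the 6 libraries, averaged over the 9 tested members, was 0.42, 0.82 and 0.63 in the WT replicates, against -0.77, -0.22 and -0.88 in the ΔrsCBE replicates. The library of the male pattern therefore lay between those of the female pattern within ΔrsCBE. In the male-pattern libraries alone, 3 WT against ΔrsCBE replicate 1, all 10 members had negative log2 fold changes. These were -1.43 for Ccna2, -1.76 for Ccnf, -1.89 for Plk1, -1.77 for Birc5, -0.92 for Aurkb, -1.31 for Cdk1 and -0.45 for Ccnb2. For Aurka, Cdkn3 and Ccnb1 they were -2.40, -2.09 and -2.35. These last were under 12.1 CPM in ΔrsCBE replicate 1, so they entered this fit through the WT libraries. With 1 library in an arm, that library is assumed to vary like the others. WT replicate 2 was also the shallowest library, and the part of depth in its high values was not tested.

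Levels of different genes were compared per kilobase of exon (union of GENCODE M21 exons). In WT the mean level was highest for Ccna2, with 49.9 CPM per kb, followed by Ccnb2 (43.3), Plk1 (26.8), Aurkb (23.2) and Birc5 (22.1). Aurka (13.1), Ccnf (10.3), Cdkn3 (6.69), Cdk1 (6.47) and Ccnb1 (3.06) were lower. Neighbours in this order overlapped over the 3 libraries except at 2 steps, from Birc5 to Aurka and from Cdk1 to Ccnb1. In ΔrsCBE, Ccnb2 (22.1 CPM per kb) and Ccna2 (20.9) were again the highest, ahead of Plk1 (10.4), Aurkb (9.28) and Birc5 (8.58). Cdk1 (4.60), Aurka (4.05) and Ccnf (3.71) followed, and Cdkn3 (1.62) and Ccnb1 (0.899) were the lowest. Ccna2 did not overlap with Plk1 there, nor Ccnf with Cdkn3, nor Cdkn3 with Ccnb1. The exonic length counts all annotated transcripts, and the level of a gene with long rarely used exons is understated by it.

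The make-up of the summed member counts asks whether the members fell by a common factor. Ccna2 took 29.5% to 32.9% of them in WT and 29.3% to 36.9% in ΔrsCBE. The genotypes overlapped in 8 of the 10 shares. The shares that did not overlap were those of Cdkn3, 2.45% ± 0.243 in WT and 1.47% ± 0.243 in ΔrsCBE, and of Ccnb1, 1.98% ± 0.253 and 1.41% ± 0.369 (SD, n = 3). For both the two-sided exact permutation p was 0.1, the smallest the design allows, and 0.5 when adjusted over the 10 shares. Cdk1 took 4.90%, 3.97% and 6.09% in WT and 5.47%, 9.45% and 10.2% in ΔrsCBE (exact permutation p = 0.2, adjusted 0.667). Ccnb2 reached 20.4% in ΔrsCBE replicate 1 against 7.96% in replicate 3. With 3 libraries against 3, no share could have passed, so the permutation test says nothing on whether the make-up differed. The Ccnb1 and Cdkn3 shares rest on 40 and 47 counts in all.

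**Figure D4:**
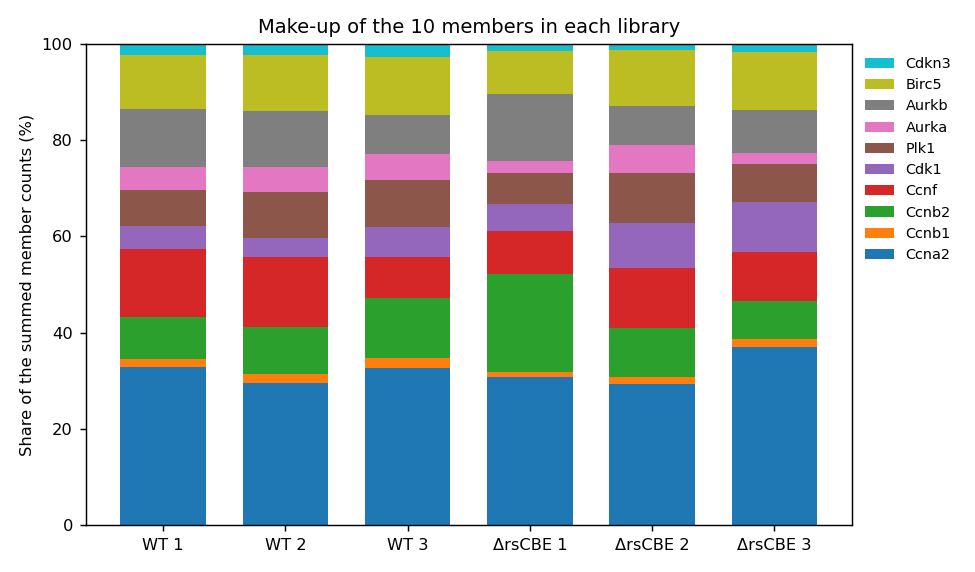
Share of each member in the summed counts of the 10 members (vertical axis, percent), 1 stacked bar per library from bottom Ccna2 to top Cdkn3. Ccna2 holds 29.3% to 36.9% throughout, and the Ccnb2 segment is widest in ΔrsCBE replicate 1, at 20.4%.

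Genes that work with the members were compared in 6 lists, also chosen with earlier results of these data known. The count table held 87 such genes, and 2 further symbols in the lists, Skp1a and Cp110, are older names of genes also listed. Of the 87 genes, 68 were tested, 12 were called lower in ΔrsCBE and 1 higher, beside 1.49% and 0.205% of all tested genes. Partners of the Polo and Aurora kinases had 5 of 11 tested genes called lower and 1 higher, with a median log2 fold change of -0.78. The lowest was Kif20a, a kinesin of the midzone that docks PLK1, from 63.1 ± 22.6 to 22.4 ± 3.75 CPM (log2 fold change -1.38, SE 0.28; edgeR adjusted p = 0.00582). Tpx2, the activator of Aurora A on spindle microtubules, fell by 1.14 (SE 0.19; edgeR adjusted p = 0.00103), in all 6 fits without 1 library too. Kif23 and Prc1, which build the central spindle, fell by 1.01 and 1.02. Bora, the cofactor through which Aurora A activates PLK1, stood at -0.78 without passing the threshold (edgeR adjusted p = 0.426). The gene called higher was Plk2, a polo-like kinase induced by stress and active in G1, from 84.2 ± 23.6 to 154 ± 40.5 CPM (log2 fold change 0.78, edgeR adjusted p = 0.0480). Its call was lost in 4 of the 6 fits without 1 library.

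Of the genes of ubiquitin-dependent control, 4 of 10 tested were called lower and all 10 had negative estimates, with a median of -0.76. Over all 7792 tested genes, 3758 had negative estimates. Fbxo5, which encodes the APC/C inhibitor EMI1, fell by 1.23 (edgeR adjusted p = 0.00569), Cdc20, the mitotic APC/C activator, by 1.14 (edgeR adjusted p = 0.0104), and Nusap1, a spindle protein that the APC/C degrades, by 1.17 (edgeR adjusted p = 0.00801). The scaffold genes Skp1 and Cul1, which serve ubiquitin ligases throughout the cycle, had log2 fold changes of -0.03 and -0.14. The list for control of CDK1, which is not limited to direct controllers, had 1 of 13 called lower and a median of -0.19. This was Cdc25b, a phosphatase that activates CDK1, from 285 ± 44.7 to 182 ± 24.8 CPM (log2 fold change -0.63, edgeR adjusted p = 0.0149). The opposing kinase gene Wee1 had -0.69 (edgeR adjusted p = 0.445), and Cdc25a had -0.26 (edgeR adjusted p = 0.896). Cdc25c and the CDK subunit genes Cks1b and Cks2 had 31, 33 and 37 counts in all and were not tested.

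The genes that direct G2/M transcription had 1 of 13 called lower and a median of -0.20. This was Rbbp4, a histone-binding subunit of the MuvB core and of other chromatin complexes, which fell by 0.70 (edgeR adjusted p = 0.00111). Foxm1, a main activator of G2/M genes, missed the threshold at -0.73 (edgeR adjusted p = 0.0642). Its levels of 115 to 147 CPM in WT and 53.3 to 102 CPM in ΔrsCBE did not overlap. Such separation, with ΔrsCBE lower, held for 3 of the 13 (Foxm1, Nfyb and Rbbp4) and for 8.92% of all tested genes. Mybl2 had -0.29, and the NF-Y subunit genes Nfya, Nfyb and Nfyc, whose product binds the CCAAT box, had -0.20, -0.26 and -0.16, with edgeR adjusted p-values of 0.603 to 0.909. Of the DNA replication genes 1 of 13 was called by edgeR and 0 of 13 by DESeq2. The gene called was Pola1, a subunit of the DNA polymerase alpha-primase complex (log2 fold change -0.82, edgeR adjusted p = 0.0173, DESeq2 adjusted p = 0.0957). The list median was -0.47, with 12 of 13 estimates below 0 and 7 at an unadjusted p-value under 0.05. Over all 7792 tested genes, 3758 estimates were below 0 and 798 had an unadjusted edgeR p-value under 0.05. Of the other cyclins and CDKs 0 of 8 were called by edgeR, and 0 by DESeq2, with 1 at an unadjusted p-value under 0.05, a median of -0.10 and a smallest edgeR adjusted p of 0.300. Estimates ran from -0.95 for Ccne2 to 0.64 for Ccnd2 (edgeR adjusted p = 0.300 and 0.758). Ccne2 had mean levels of 27.8 CPM in WT and 13.1 CPM in ΔrsCBE, without overlap, while Ccnd2 overlapped. Ccnd3, the D-type cyclin of pre-B cells, had a log2 fold change of 0.24, Cdk4 -0.07, Cdk6 -0.20 and Cdk2 -0.41. Of the 13 list genes called, Tpx2 and Rbbp4 were past the threshold in all 6 fits without 1 library and the others in 2 to 5, and Incenp, Kif23, Nusap1, Rbbp4 and Tpx2 were past it with library sex as a covariate. Differences between the lists were not tested.

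**Figure D5:**
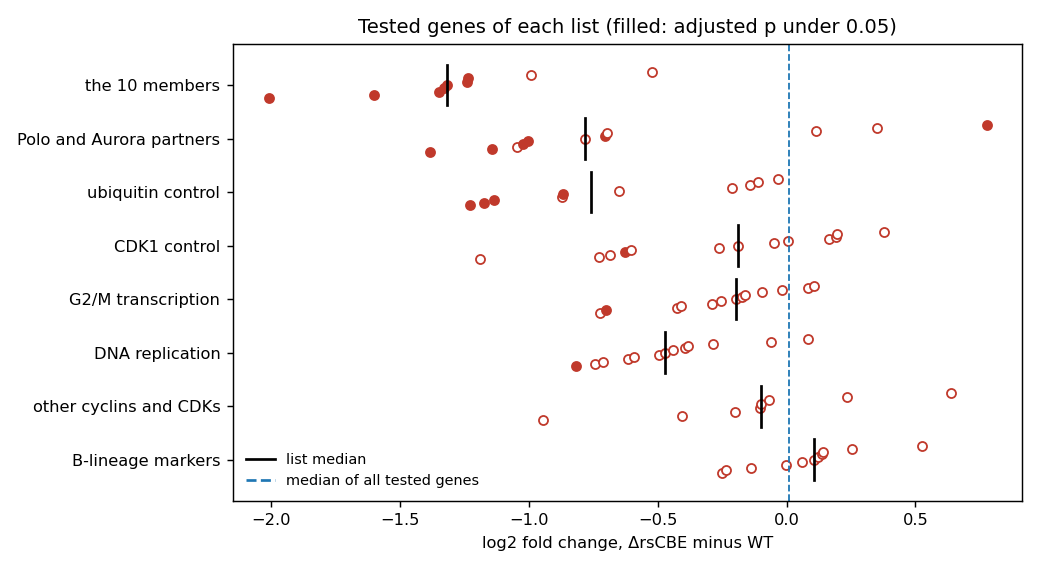
Log2 fold change (ΔrsCBE minus WT, horizontal axis) of each tested gene in 8 lists, filled where the edgeR adjusted p-value was under 0.05, with a bar for the list median and a dashed line for the median of all tested genes. The members have the lowest median, -1.32, and the B-lineage markers the highest, 0.11.

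The genes whose levels ran most like the members over the 6 libraries were Ckap2l, Aspm, Top2a, Pwwp2a and Cenpf, by the Pearson r of log2 CPM with the mean standardised level of the tested members (0.998, 0.997, 0.997, 0.995 and 0.991, of 6408 genes with a mean of at least 20 CPM). These values describe 6 points of which 3 share a genotype. Aspm had 266, 336 and 313 CPM in WT and 89.6, 156 and 94.7 CPM in ΔrsCBE. Pwwp2a followed the same order over a range of only 147 to 160 CPM, and differed by -0.10 on the log2 scale (edgeR adjusted p = 0.892). With the genotype means subtracted, genes of highest r were Ywhah, Zfp106, Vipas39 and Rftn1 (0.998, 0.995, 0.992 and 0.991), with edgeR adjusted p-values of 0.623 to 0.911 between genotypes. None of the genes nearest over all libraries was among them. With so few points, the highest r of 6408 genes can be this high through selection alone. No conclusion is therefore drawn from these genes.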

How the data were processed

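RNA-seq counts came from 6 libraries of sorted small pre-B cells, 3 WT and 3 ΔrsCBE, made per the labels' protocols from 1 µg of DNase-treated RNA after removal of ribosomal RNA, with a stranded total RNA kit. The submitters' processing notes name Trim Galore 0.6.10, STAR 2.7.11, HTSeq, DESeq2 and the build mm10 (GRCm38), with no roles. The deposited table holds whole-number read counts per gene symbol, without normalization; annotation, strand setting and filters are not given in the sources used here. Totals were 428106 to 1300805.

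Counts were tested with edgeR 4.0.16 in R 4.3.3: filterByExpr with a minimum count of 10, TMM, glmQLFit (robust) and glmQLFTest with genotype as the sole factor, and Benjamini-Hochberg adjustment over all 7792 genes tested (132 past 0.05). Standard errors come from the F statistic. CPM use TMM-scaled sizes over tested genes; log2 CPM used a prior count of 2. Members and lists were chosen with earlier results of these data known. Named were all members and, per list, role partners and the called genes of lowest and highest log2 fold change. Kif23, Prc1, Cdc20, Nusap1, Skp1, Cul1, Ccne2, Ccnd2 and the NF-Y subunit genes were added after their values were seen. A gene that the likeness rule names is not reported here. The fits were checked on simulated counts. Alternatives covered scaling, DESeq2 1.42.0, filters, threshold, left-out libraries, the replicate block and library sex.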

Additional observations from a re-analysis of the deposited data

How the results depend on the processing

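All 134 estimates of single members under the alternatives were below 0. They reuse the same libraries, and those where only the threshold changed repeat the main estimates. Of the 134, 23 lost and 5, all of Ccnb2, gained a call. The count of 7 members was 2 to 7 without 1 library (2 without ΔrsCBE replicate 3, 3 without WT replicate 2, 4 without WT replicate 3), 4 with the sex covariate (Ccna2, Ccnf, Plk1 and Birc5), 5 with DESeq2 and 8 without a count filter. The member median of -1.32 ranged from -1.62 to -1.17 without 1 library and was -1.77 both with the sex covariate and in the male-pattern libraries alone, where the genotype effect rests on ΔrsCBE replicate 1. The 132 genes became 59 to 187 without 1 library (59 without WT replicate 3 or ΔrsCBE replicate 3) and 87 with the sex covariate. The 12 lower list genes became 4 to 18 without 1 library (5 without WT replicate 3, 4 without ΔrsCBE replicate 3) and 6 with the sex covariate. The summed share differed by -0.0365 percentage points, and by -0.0400 to -0.0326 without 1 library. Higher genes numbered 16, but 25 when no filter was used and 6 to 44 without 1 library, and the part of all called genes that was lower, 87.9%, was 71.97% without ΔrsCBE replicate 1. Shares of the make-up that did not overlap numbered 2, and 2 to 4 without 1 library, 4 of them without WT replicate 3. Counts both rose and fell when 1 library was left out, and the causes were not tested. With the replicate block 136 genes and 6 members were called, Cdkn3 being the call lost. Over all genes, same-numbered libraries did not deviate together (r of 0.0131, 0.0197 and 0.00908). The labels do not say whether they share more than a number, and a batch that touched few genes could leave r this low. Low counts limit Ccnb1 and Cdkn3 most.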
